A study of Mus musculus with 2 samples.

Results

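The caspases, the Bcl2 family and the TNF superfamily, the gene families that execute, gate and trigger cell death, were compared between primary tumours and liver metastases of Colon26 cells. Genes were taken by their current symbol: caspases, Bcl2-type genes with Bad, Bid, Bik, Bak1 and Mcl1, Bnip and Birc genes, Endog, TNF ligands, receptors and TNF-induced genes, and the TRAF adaptors. The platform named 74 of them, and 63 had a value on both arrays, out of 13506 such genes in all. A further 6 had a value on 1 array and 5 on neither, Tnf itself among the latter.

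Colon26 is a colon carcinoma line from the mouse. The cells were placed beneath the lining of the rectum in Balb/c mice, and total RNA was isolated from primary tumours and from their liver metastases. Each of 2 arrays hybridised 1 primary tumour, in Cy5, together with 1 liver metastasis, in Cy3, and the tumours of the 2 arrays were grown and harvested separately, per the series' design text. The labels name no genotype beyond the strain, no sex, age or time of harvest, and no untreated control. A metastasis sample can hold liver and blood cells as well as carcinoma cells, and a primary tumour rectal tissue. In such bulk samples fewer cells of a type cannot be told apart from less RNA per cell.

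Every value is a log ratio of the 2 channels of 1 array, taken as log2, so that 1 unit is a doubling if that base is right. Neither the base nor the channel in the numerator is stated. Positive and negative therefore name the 2 sides of the ratio, and no side is assigned to the metastasis. Both arrays carried the same dye orientation, so a preference of a probe for 1 dye cannot be told apart from a difference between tissues. The table holds ratios and no intensities, which leaves the level of a gene in either tissue unknown and the labelled tissues unchecked against their markers by level. The number of arrays limits the precision.

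As background, apoptosis runs along a pair of routes that meet at the caspases, proteases that cut after aspartate. In the mitochondrial route, BH3-only proteins free Bax and Bak1 from the anti-apoptotic Bcl2 proteins, the outer membrane opens, and cytochrome c assembles Apaf1 and caspase 9. In the receptor route, ligands of the TNF superfamily cluster their receptors, which recruit adaptors and caspase 8 for death, or TRAF proteins and Birc ubiquitin ligases for NF-kB signalling and survival. A separate branch of inflammatory caspases, caspase 1 and caspase 4 (the mouse protein formerly called caspase 11), matures interleukins and triggers lytic death.

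The inflammatory caspases Casp1 and Casp4 lie side by side on mouse chromosome 9, with Casp12 as the next protein-coding gene in the RefSeq table of GRCm38.p6. The bases in front of their transcription starts are shown because Casp1 and Casp4 gave like ratios on both arrays while Casp12, beside them, did not. Each run is from RefSeq (GRCm38.p6, plus strand), 5′ to 3′. The run in front of Casp1 is chr9:5298267-5298516, that of Casp4 is chr9:5308599-5308848 and that of Casp12 is chr9:5345226-5345441. Capitals mark matches to an E box (CACGTG), to the interferon gamma-activated sequence (GAS, TTCNNNGAA), to the interferon-stimulated response element (ISRE) or to the NF-kB consensus site, searched on both strands.
Casp1: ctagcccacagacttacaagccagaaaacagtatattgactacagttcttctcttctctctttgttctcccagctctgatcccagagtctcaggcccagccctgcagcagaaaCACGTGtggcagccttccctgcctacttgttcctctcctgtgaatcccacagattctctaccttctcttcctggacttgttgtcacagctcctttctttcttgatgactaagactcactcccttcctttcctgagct
Casp4: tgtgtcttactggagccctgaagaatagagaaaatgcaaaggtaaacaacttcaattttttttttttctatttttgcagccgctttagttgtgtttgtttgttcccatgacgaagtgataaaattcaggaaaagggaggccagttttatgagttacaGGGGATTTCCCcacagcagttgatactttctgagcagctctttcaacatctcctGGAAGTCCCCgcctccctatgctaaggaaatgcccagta
Casp12: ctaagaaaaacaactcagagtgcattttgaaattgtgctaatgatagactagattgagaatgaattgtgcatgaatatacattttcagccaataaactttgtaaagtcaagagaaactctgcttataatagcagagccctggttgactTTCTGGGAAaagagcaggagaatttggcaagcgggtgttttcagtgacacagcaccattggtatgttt

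Casp1 held 1 match, to the E box, which begins 137 bases before the start. Casp4 held 3 NF-kB matches, a pair overlapping by all but 1 base that begin 93 and 92 bases before the start, and 1 that begins 39 bases before it. Casp12 held a GAS match that begins 102 bases before the end of its window of 250 bases, and that window held 2. The printed run of Casp12 stops short of the window's end, at 216 bases. It ends before the outermost start of the gene in the RefSeq table, and the other match is not printed. Over the first listed windows of 250 bases of 27025 genes, an E box stood in 6.04%, a GAS match in 7.14%, an ISRE match in 3.05% and an NF-kB match in 7.03%. Of the 63 genes, 56 had a window, and these motifs stood in 5, 5, 3 and 8 of them. The 8 genes with an NF-kB match were Birc5, Bnip1, Casp4, Tnfaip2, Tnfaip3, Tnfaip8l1, Tnfrsf8 and Traf3. The matches are letters in a window and were set against no binding data.

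Each gene's ratio was tested against 0 with limma's moderated test, fitted on all 13506 genes, and a gene was called at an adjusted p under 0.05. Of the 63 genes, 6 were called: Casp1, Casp4, Bcl2l14 and Tnfsf13b on the positive side, and Endog and Tnfaip2 on the negative side. Over all genes 391 were called, or 2.90%. By side, the background was 2.12% positive and 0.777% negative. A distance of at least 1 unit from 0 with the same sign on both arrays was met by 4 of the 63 (Casp1, Casp4, Bcl2l14 and Endog), against 2.27% of all genes. The calls over all genes depended on the normalization: quantile normalization left 4, of which 1 was positive, where 286 of 391 had been.

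Most of the 63 genes lay within 1 unit of 0 on each array, but they spread more widely than all genes. The SD across the 63 was 0.72 on array 1 and 0.69 on array 2, against 0.51 and 0.55 over all genes. The median of the 63 was -0.13 (-0.14 on array 1, -0.07 on array 2), against -0.02 over all genes. Centring each array, which moved the median of all genes by under 0.1, gave a median of -0.11. They were negative on both arrays in 27 cases, positive on both in 17 and of differing sign in 19. Over all genes the shares with these patterns were 38.2%, 33.9% and 27.8%. An unadjusted p under 0.05 in limma's test was met by 15, where 27.5% of all genes met it. The median SD between arrays was 0.16, and 0.17 over all genes. As a description across genes that share the 2 arrays, Pearson's r between the arrays was 0.631 over the 63 and 0.615 over all 13506.

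**Figure D1:**
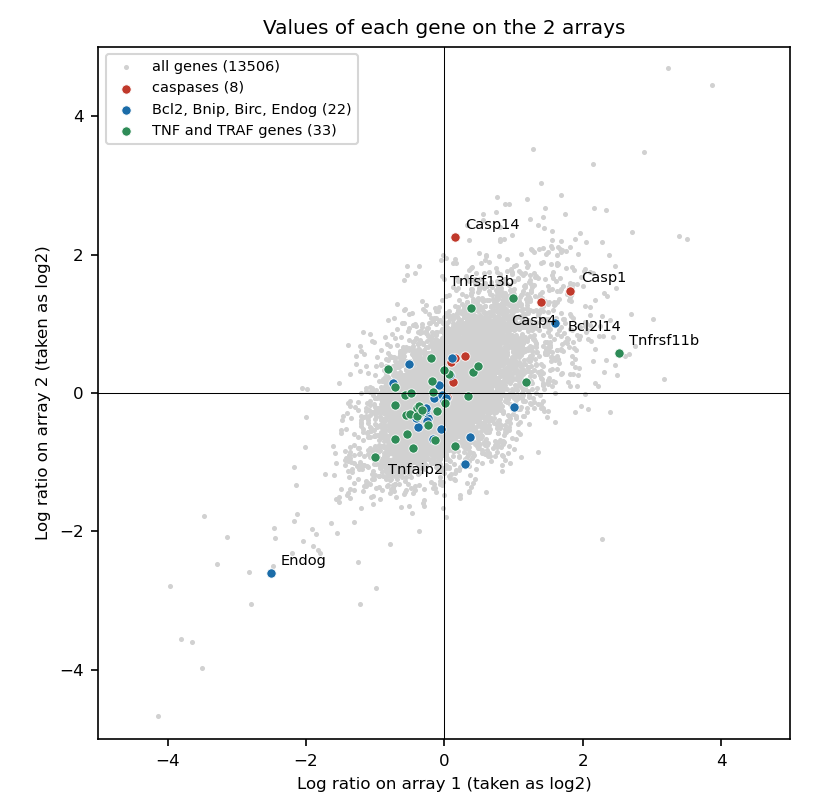
Log ratio of each gene on array 1 (horizontal axis) and array 2 (vertical axis), both taken as log2; grey points are all 13506 genes and coloured points the 63 genes by family. Endog is the coloured point at the lower left, at -2.51 and -2.60, Casp1, Casp4, Bcl2l14 and Tnfsf13b stand at the upper right, and Casp14 and Tnfrsf11b are far from 0 on 1 array and nearer on the other.

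Caspases lay mainly above 0. Both arrays gave a positive value for 7 of the 8 measured, all except Casp9, and the median was 0.37. Casp1, which matures interleukin 1 beta and interleukin 18, had 1.82 on array 1 and 1.48 on array 2. Casp4, the sensor of intracellular lipopolysaccharide, had 1.39 and 1.31. Both genes were thus more than 1 unit above 0 on each array. Their means were 1.65 ± 0.24 and 1.35 ± 0.06 (SD, n = 2), ratios of 3.14-fold and 2.55-fold if the base is 2. Limma gave 95% intervals from 1.22 to 2.08 and from 0.96 to 1.74, with adjusted p of 0.0303 and 0.0333. Casp12, a caspase of the endoplasmic reticulum and the third gene of the same cluster, had 0.13 and 0.15. Its interval, from -0.24 to 0.53, ends below the lower bounds of both neighbours. Gria4, the protein-coding gene on the other side of Casp1, had -0.24 and -0.65.

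Casp14, which acts in the cornified layer of the skin, had 0.15 on array 1 and 2.25 on array 2. The arrays thus gave no common size, and its mean of 1.2 ± 1.49 did not pass (limma adjusted p = 0.193). The initiator Casp8, activated at death receptors, had 0.30 and 0.53, and Casp2, activated by the PIDDosome, 0.16 and 0.51. Casp6, an executioner, had 0.09 and 0.46. These values sit low on the positive side on both arrays and none was called. Casp9, the initiator of the mitochondrial route, had 0.04 and -0.06, and its interval from -0.40 to 0.38 bounds a shift in either direction. Its mean of -0.01 turned to 0.02 after centring.

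The anti-apoptotic Bcl2 proteins, which hold Bax and Bak1 in check, had no common side. Both arrays were positive for 2 of 5 measured and negative for 2, and 0 were called or reached an unadjusted p under 0.05 in limma's test. Bcl2 had -0.26 on array 1 and -0.40 on array 2 over its 2 probes, which were both negative on both arrays. Bcl2l1, which encodes Bcl-xL, had -0.17 and -0.67. Mcl1, the short-lived member of the group, lay on the other side with 0.11 and 0.51, as did Bcl2l2, or Bcl-w, with 0.08 and 0.26. All 4 were within 1 unit of 0 on each array. The probe named Bcl2a1c read 0.00 and -0.11, and because the A1 genes are close copies of each other it may report more than 1 of them. Limma's adjusted p for these 5 genes ran from 0.219 for Bcl2l1 to 0.835 for Bcl2a1c. The arrays opposed each other for Bak1, a pore-forming protein of the outer mitochondrial membrane, at 0.37 and -0.64. Bax is not analysed here.

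BH3-only proteins, which set off the mitochondrial route, were mostly negative by small amounts. Bid, cut by caspase 8 and so the link from the receptor route, had -0.38 and -0.49. Bad, held inactive by survival kinases, had -0.24 and -0.36, and Bcl2l11, which encodes Bim, had -0.27 and -0.24. The 3 genes were negative on both arrays with little spread, yet limma called 0 of the 4 measured, with an adjusted p of 0.156 for Bid and 0.263 and 0.318 for Bad and Bcl2l11. Bid was the 1 of them with an unadjusted p under 0.05. Bik, the fourth, had 1.01 and -0.21, so its arrays lay on opposite sides.

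Bcl2l14, also called Bcl-G, was the 1 called gene of the Bcl2 family. It had 1.60 on array 1 and 1.01 on array 2, above 0 by at least 1 unit on both, with a mean of 1.31 ± 0.41 (SD, n = 2) and a limma interval from 0.80 to 1.82. The adjusted p of 0.0475 lay near the threshold, and the call was kept in 2 of 8 alternative settings. Its neighbours on the chromosome, Etv6 and Lrp6, had means of 0.14 and -0.39 and were not called. Bcl2l15, also named for its likeness to Bcl2, had 0.30 and -1.03, while Bcl2l12 had -0.05 and -0.51 and Bcl2l13, a mitochondrial receptor for autophagy, 0.02 and -0.07. Bcl2l13 was thus near 0 on both arrays, and the values of the other two lay farther apart.

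The Bnip and Birc genes lay near 0. Bnip3l, or Nix, which marks mitochondria for removal and is induced by low oxygen, had -0.74 on array 1 and 0.14 on array 2. Bnip1 and Bnip2 had -0.04 and -0.15 on array 1 and -0.03 and -0.07 on array 2. Among the Birc inhibitors, Birc5, or survivin, a protein of dividing cells, had -0.41 and -0.35. Birc2, a ubiquitin ligase of TNF receptor complexes that was found under an older clone name, had -0.26 and -0.22. Its close relative Birc3 had -0.51 and 0.43, and the giant Birc6 had -0.08 and 0.12. Limma called 0 of these 7 genes and 0 had an unadjusted p under 0.05. Birc5 came nearest, at an adjusted p of 0.184 and an interval from -0.77 to 0.00.

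Endog, a nuclease of the mitochondrial intermembrane space that can cut nuclear DNA once released, was the gene farthest from 0. It had -2.51 on array 1 and -2.60 on array 2, and no other of the 63 was below -1.03 on either array. The mean was -2.56 ± 0.06 (SD, n = 2), and limma's interval ran from -2.94 to -2.17 (adjusted p = 0.020). It ranked 17 of 13506 by distance from 0. The protein-coding genes beside it, Tbc1d13 and Spout1, had means of -0.05 and -0.19 and were not called. Other factors that leave mitochondria in apoptosis or cut DNA did not share its value: Aifm1 had 0.10 and 0.30, Cycs, cytochrome c, 0.51 and 0.68, Diablo -0.19 and -0.12, and Dffb, the caspase-activated DNase, -0.38 and -0.56. The 1 probe of Endog carries the whole result, so no second probe checks it. The same holds for every other called gene of the 63, as only Bcl2 had more than 1 probe.

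**Figure D2:**
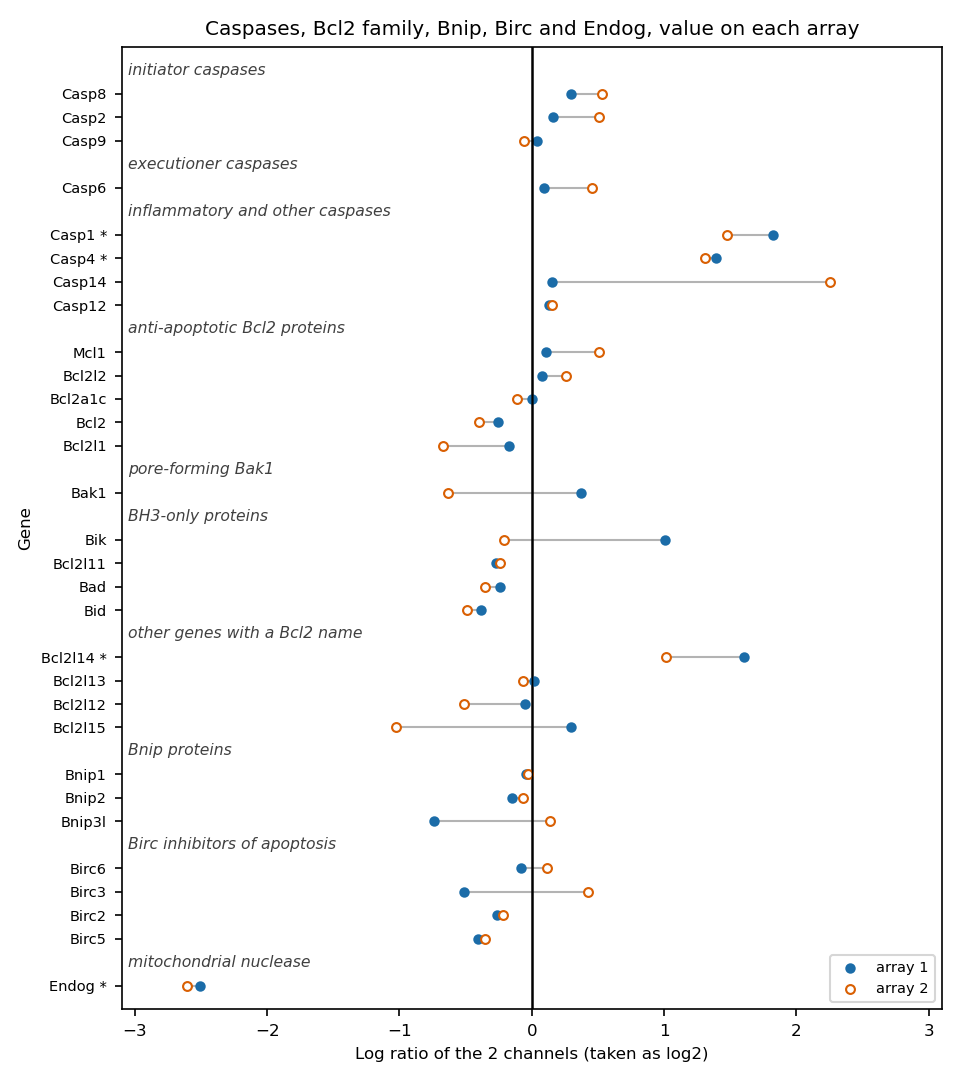
Log ratio (horizontal axis, taken as log2) of each measured caspase, Bcl2 family, Bnip and Birc gene and Endog, grouped by role; filled points are array 1, open points array 2, grey lines join them, and stars mark genes called by limma. Endog sits at -2.51 and -2.60, Casp1, Casp4 and Bcl2l14 are above 1 on both arrays, and most of the others lie within 1 unit of 0.

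Among the ligands of the TNF superfamily, 5 of 10 on the platform had values on both arrays. Tnfsf13b, which encodes BAFF, a survival factor of B cells made by myeloid and stromal cells, had 0.99 on array 1 and 1.37 on array 2. Both values were high and on the same side. The mean was 1.18 ± 0.27 (SD, n = 2), and limma's interval ran from 0.74 to 1.62 (adjusted p = 0.0472). The call was kept in 4 of 8 alternative settings. Its neighbour on the chromosome, Abhd13, lay on the same side at 1.11 and 0.64 and was not called. The related ligand Tnfsf13, or APRIL, was on the other side at -0.56 and -0.32 (limma adjusted p = 0.165). Of the receptors of this pair, Tnfrsf13b, or TACI, had 1.18 and 0.16, and Tnfrsf17, or BCMA, 0.06 and 0.27. Both were positive on both arrays and neither was called.

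Tnfsf9, the ligand of the costimulatory receptor 4-1BB, had -0.72 and -0.66, a mean of -0.69 ± 0.04 that missed the threshold (limma adjusted p = 0.0801). The receptor itself, Tnfrsf9, had -0.72 and -0.18, so ligand and receptor were both negative on both arrays. Tnfsf8, the CD30 ligand, had 0.15 and -0.77, and its receptor Tnfrsf8 had -0.19 and 0.51. The arrays opposed each other for both, in opposite order. Tnfsf11, or RANKL, which drives osteoclasts, had 0.01 and -0.14. Its soluble decoy receptor Tnfrsf11b, osteoprotegerin, had 2.52 on array 1 and 0.58 on array 2. The decoy was thus positive on both arrays but with sizes far apart, and its mean of 1.55 ± 1.37 did not pass (limma adjusted p = 0.122).

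The 15 receptors measured fell into 5 above 0 on both arrays, 5 below 0 on both and 5 of differing sign. None was called by limma, and 2 had an unadjusted p under 0.05 (Tnfrsf11b and Tnfrsf18). Tnfrsf18, or GITR, a costimulatory receptor of T cells, had 0.39 and 1.23, and limma's interval ran from 0.20 to 1.43 (adjusted p = 0.122). Tnfrsf14, or HVEM, had 0.42 and 0.30. The receptors of TNF itself differed in sign on array 1 and were both below 0 on array 2: Tnfrsf1a, found on most cells, had 0.34 and -0.05, and Tnfrsf1b, mainly of immune and endothelial cells, -0.40 and -0.22. Tnfrsf10b, the mouse death receptor for TRAIL, had -0.34 and -0.28. The decoys Tnfrsf22 and Tnfrsf23 had -0.57 and -0.23 on array 1 and -0.03 and -0.47 on array 2, and being close relatives they may share probe signal. These 3 genes were negative on both arrays, by less than 0.6, whereas osteoprotegerin, which also binds TRAIL, was positive on both, as given above.

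The remaining receptors were near 0 or had arrays that opposed each other. Tnfrsf21, or death receptor 6, had -0.72 and 0.09, and Tnfrsf4, or OX40, -0.48 and 0.00. Tnfrsf12a, the receptor of TWEAK, had -0.18 and 0.18, whose mean of 0.00 changed sign on centring.

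TRAF adaptors, which couple TNF and Toll-like receptors to NF-kB and MAP kinases, were mostly on the negative side. Of 6 measured, 4 were negative on both arrays and 0 positive on both, with a median of -0.32 against -0.02 over all genes. Traf7 had -0.45 and -0.79, Traf6, which also serves interleukin 1 and Toll-like receptors, -0.50 and -0.30, Traf4 -0.39 and -0.34, and Traf3, a brake on non-canonical NF-kB signalling, -0.32 and -0.25. Limma called 0 of the 6, and 1 (Traf7, adjusted p = 0.107) had an unadjusted p under 0.05. Traf2, the main adaptor of the TNF receptors, had -0.01 and 0.33. Traf1, an NF-kB target that pairs with it, had -0.82 and 0.34.

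The TNF-induced genes, grouped here by the Tnfaip name and not by a shared function, divided. Tnfaip2, also called M-sec, which forms membrane tubes between cells, had -1.0 on array 1 and -0.93 on array 2. Its mean was -0.96 ± 0.05 (SD, n = 2), with a limma interval from -1.35 to -0.58. The adjusted p of 0.0491 in limma lay at the threshold. The call was kept in 1 of 8 alternative settings, the fit on genes with a value on at least 1 array. Tnfaip1 had -0.54 and -0.59 (limma adjusted p = 0.105), and Tnfaip3, or A20, the deubiquitinase that ends NF-kB signalling, -0.14 and -0.67. Tnfaip6, or TSG-6, a hyaluronan-binding protein, was the 1 positive on both, at 0.48 and 0.39 (limma adjusted p = 0.154). Tnfaip8l2 had -0.37 and -0.19, and Tnfaip8l1 -0.10 and -0.26. Tnfaip8, related to both, had -0.16 and 0.02. In all, 5 of the 7 were negative on both arrays.

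**Figure D3:**
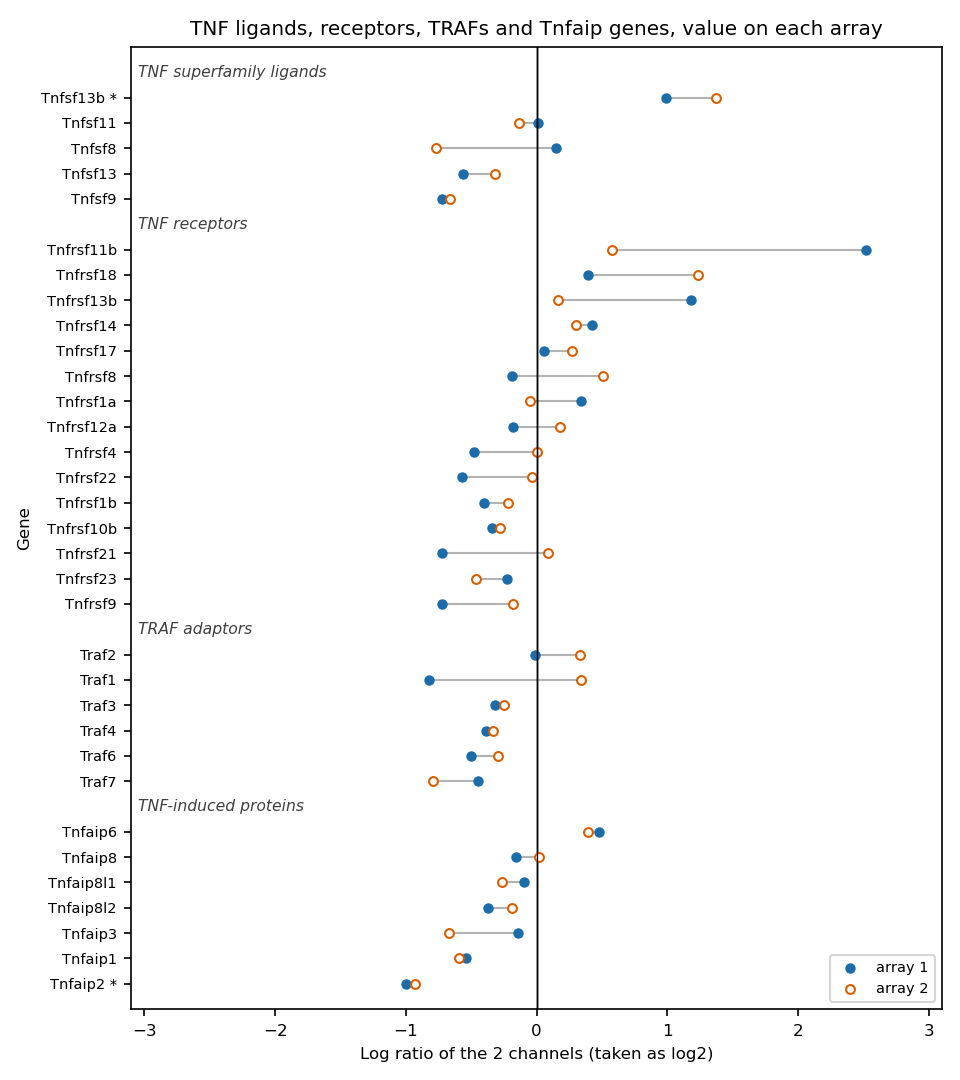
Log ratio (horizontal axis, taken as log2) of each measured TNF ligand, TNF receptor, TRAF adaptor and TNF-induced gene, grouped by role; filled points are array 1, open points array 2, grey lines join them, and stars mark genes called by limma. Tnfsf13b and Tnfaip2 are the starred genes, at 1.18 and -0.96 on average, and the long line of Tnfrsf11b runs from 2.52 to 0.58.

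Other genes of these pathways, which the symbol rule does not take, were read from lists of ligands and receptors under other names, death adaptors, apoptosome factors, BH3 genes, p53 targets and NF-kB regulators. Of 89 listed, 73 were measured. They were negative on both arrays in 31 cases, positive on both in 20 and mixed in 22, with a median of -0.15. Limma called 2, both negative, against 2.90% of all genes. Tigar, a p53 target that lowers glycolytic flux, had -1.49 and -1.39. Ripk3, the kinase of necroptosis, had -0.93 and -1.05 with an adjusted p of 0.0475. Mlkl, the pore-forming protein that Ripk3 phosphorylates, lay on the other side at 0.82 and 0.98 and just missed the threshold (limma adjusted p = 0.0554). Kinase and substrate thus had ratios of like size and opposite sign on both arrays. Tigar was called in 6 of 8 alternative settings and Ripk3 in 1.

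Within the other lists, Ripk2, a kinase of bacterial sensing, had -0.57 and -0.61, and Fadd, the adaptor for caspase 8, 0.09 and 0.18. Fas had 0.21 and -0.93, Cd40 -0.46 and -0.35, Ltbr -0.29 and -0.33, and Eda2r 0.22 and 0.14. In the list of BH3 genes, 4 of 8 measured were positive and 4 negative on both arrays. Its most negative were Bag1 at -0.47 and -0.59, Bbc3, or Puma, at -0.68 and -0.26, Bok at -0.32 and -0.44, and Tmbim6 at -0.33 and -0.33. Among p53 targets Trp53inp1 had 0.70 and 0.96, Sesn2 -0.64 and -0.54 and Cdkn1a -0.54 and -0.51. In the NF-kB list of 18, both arrays were negative for 9 and positive for 2. Nfkb2, the precursor of the non-canonical subunit, had -0.87 and -0.63 (limma adjusted p = 0.0777), Tab1 -0.41 and -0.86, and Ikbkg, or NEMO, 0.40 and 0.63. Xiap, the Birc relative that binds active caspases, had 0.66 and 0.25. None of the genes in this paragraph was called.

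Many of these genes are also made by immune, endothelial or liver cells, whose markers had the following ratios. All 7 measured endothelial markers were positive on both arrays, from 0.14 for Kdr to 1.25 for Flt1, and limma called Flt1, kept in 3 of 8 alternative settings, and Robo4, kept in 1. Of 6 macrophage markers, 2 were positive and 3 negative on both arrays, with Cd14 called at -1.2 (kept in 1 of 8 alternative settings) and Fcgr1, not called, at 1.12. T and NK cell markers ran from -0.16 for Cd4 to 0.99 for Cd2 (2 of 9 positive and 3 negative on both arrays), and B cell markers from -0.41 for Ighm to 0.91 for Cd79b (2 of 4 each way). Hepatocyte markers ran from -0.95 for Fah to 0.80 for Ttr (2 of 9 positive and 4 negative on both arrays). Limma called 0 of them, and 4 had an unadjusted p under 0.05, against 27.5% of all genes. Of 4 neutrophil markers 3 were positive on both arrays (Mmp9 with a mean of 1.08, Mpo 0.97 and Ly6g 0.37) and 1 negative (S100a8, -0.88), and the median was 0.67, against 0.54 for the endothelial markers. Epithelial markers ran from -0.49 for Cldn7 to 0.49 for Krt20. The endothelial markers and 3 of the 4 neutrophil markers lay on the side of the called Casp1, Casp4, Bcl2l14 and Tnfsf13b. So did some markers of other cell types, among them Cd2, Cd79b, Fcgr1 and Ttr, while others of these types lay on the other side. The part of any of these cell types in the results was not tested, and the ratios give no summed level per tissue.

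The 6 calls differed in how far they held. Endog and Casp1 were called in 6 of 8 alternative settings, Casp4 in 5, Tnfsf13b in 4, Bcl2l14 in 2 and Tnfaip2 in 1. With quantile normalization limma called 0 of the 63, with 16 at an unadjusted p under 0.05 where the reported fit had 15, and the 6 genes' adjusted p in limma lay between 0.0641 for Endog and 0.0801 for Bcl2l14. Without moderation the test rests on 1 degree of freedom, and the lowest was 0.462. The means of the 6 genes were unchanged or moved little between settings, so their constant sign is no test of the calls.

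**Figure D4:**
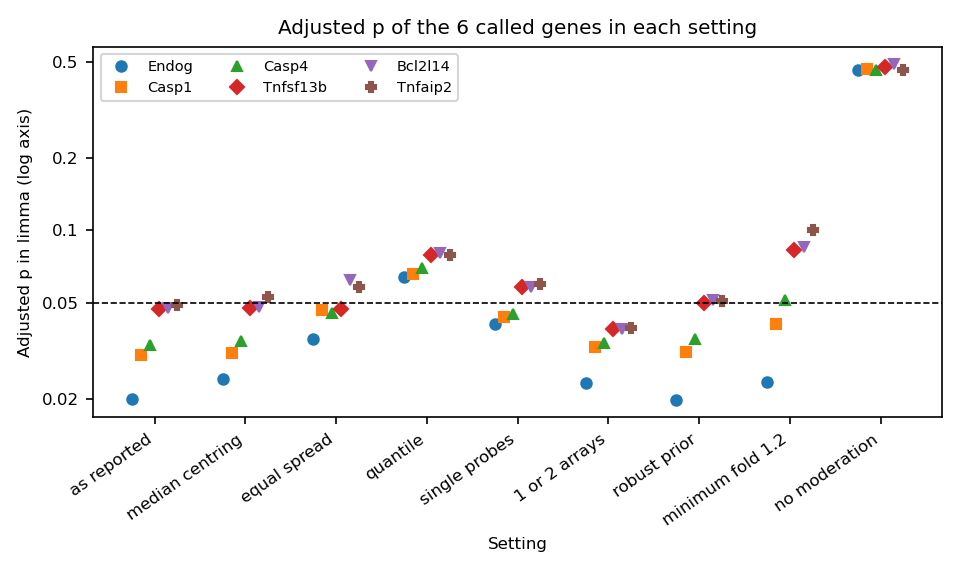
Adjusted p in limma (vertical log axis) of the 6 called genes in the reported fit and in each of 8 alternative settings (horizontal axis); the dashed line is 0.05. Endog, Casp1 and Casp4 stay lowest in most settings, all 6 lie above the line after quantile normalization, and all reach 0.462 or more without moderation.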

How the data were processed

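RNA of 2 primary tumours and 2 liver metastases was compared on 2 two-colour arrays. The deposited table gives 1 log2 value per probe and array (the base is assumed); the sources used here state no background correction, spot filter, normalization or direction. The medians over all deposited values were 0 and -5.53e-06.

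Of 23473 probes, 18837 had both values. The platform annotation named 1 gene for 16631 probes, several for 0 and none for 6842; 12622 symbols were current in the RefSeq table of GRCm38.p6, a unique synonym updated 3947, and 62 stayed as given. Probes were averaged per gene.

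Limma 3.58.1 in R 4.3.3 (lmFit, eBayes) tested each gene against 0, with 1 residual degree of freedom and a prior of 4.06, and Benjamini-Hochberg adjustment over all genes. It was tested on simulated data. The members and lists were chosen with earlier results of these data known. Both array values are given for called genes, for up to 4 members per role with the largest weaker-array value (3 per companion list), and for a set of core genes; other members are named freely. Motifs were chosen after the values were seen. Figures used matplotlib 3.10.9.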

Additional observations from a re-analysis of the deposited data

How the results depend on the processing

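Among single genes, Casp9 turned from -0.01 to 0.0169 after centring and to 0.0207 after scaling the arrays to equal spread. Tnfrsf12a, just below 0 as reported, turned to 0.0234 and 0.0079 in these settings, and Bcl2l13 from -0.02 to 0.00297 after scaling. No other of the 63 genes changed the sign of its mean in the 8 alternatives. Leaving out moderation, a robust prior and a minimum fold change only the test, so no mean could change sign there. The count of called genes among the 63, 6 as reported, was 3 in the fit on single probes, 2 with a minimum fold of 1.2, 0 with quantile normalization and 0 without moderation (limma, with 16 and 8 at an unadjusted p under 0.05). Over all genes, 391 as reported, it was 241 after scaling, 4 with quantile normalization, 238 on single probes, 1041 with genes measured on at least 1 array, 0 without moderation (limma, with 1450 at an unadjusted p under 0.05) and 108 with the minimum fold. Of the listed pathway genes outside the rule, 2 were called as reported, 1 after centring, scaling, with a robust prior, on single probes or with the minimum fold, 0 with quantile normalization or without moderation (limma, with 18 and 10 at an unadjusted p under 0.05), and 3 with genes measured on at least 1 array. With genes measured on at least 1 array, a gene with 1 value has no residual degree of freedom, and its test rests on the prior alone. Tnfaip2, Ripk3, Cd14 and Robo4, each kept in 1 of 8 alternatives, were kept in this one. The count at least 1 unit from 0, 4 on both arrays, was 8 on array 1 alone and 8 on array 2 alone. Leaving out an array leaves no residual degree of freedom, so calls could not be recomputed that way. Each ratio already sets a primary tumour against a metastasis within an array, so the reported test is paired by array and no further replicate block could be fitted. The sample titles do not say whether both came from the same mouse. Signal over background is unknown.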

Other observations

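Values of 6 genes stood on 1 array alone and entered no comparison. Tnfsf10, the death ligand TRAIL, had 1.22 on array 1. On array 2, Tnfrsf25, or death receptor 3, had 0.58, Tnfrsf11a, the receptor RANK, 0.38, Tnfsf14, or LIGHT, 0.16, Tnfrsf19 -0.25 and Tnfrsf26, a relative of the TRAIL decoys, -0.27.

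Partners of the inflammatory caspases were read after the values of Casp1 and Casp4 were seen. Il18, a substrate of caspase 1, had 1.21 and 0.36 on arrays 1 and 2, and Gsdmd, the pore-forming protein that both caspases cut, 0.54 and 0.32. Aim2, a sensor of cytosolic DNA, had 0.29 and 0.64. These 3 were positive on both arrays. Il1b, the other main substrate, had -0.21 and -0.24, the sensor Nlrp3 -0.26 and -0.56, and the adaptor Pycard 0.16 and -1.16. Limma called 0 of these 6 genes.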
